A study of Homo sapiens with 12 samples.

Results

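The simple epithelial keratins KRT7, KRT8, KRT18, KRT19, KRT20, KRT23 and KRT80 were followed in colon cancer cells with and without silencing of the mucin gene MUC1. The members were taken by symbol, and all 7 were listed in both deposited tables, of 25673 genes for LS411N and 25540 for LS411N-BR. LS411N is a human colon cancer line. LS411N-BR is its derivative, labelled resistant to BRAF inhibitors and kept in medium with 4 µM of such an inhibitor, which the parental line did not receive. All 12 libraries came from puromycin-resistant cells that carry a tetracycline-inducible short hairpin RNA against MUC1. Both lines were sampled without doxycycline (3 libraries, 0.1% DMSO as vehicle) and with 500 ng/ml doxycycline (3 libraries), which turns the hairpin on. No library had doxycycline without the hairpin, so the drug and the loss of MUC1 cannot be told apart. Each line is a single derivative, and resistance and the presence of the inhibitor cannot be told apart either. The triplicates are cultures, with no word in the labels on separate days of growth, so the p-values measure the spread between these cultures.

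Keratins are the intermediate filament proteins of epithelial cells. A filament is built from pairs of a type I (acidic) and a type II (basic) chain, so neither kind polymerises alone. In the gut lining the pair KRT8 (type II) and KRT18 (type I) is the basic filament, KRT19 is a further type I partner of KRT8, and KRT20 is a type I keratin of the differentiated cells of the upper crypt and surface. KRT7 is a type II keratin of ducts and is usually scarce in colon, which is why pathologists read KRT7 and KRT20 together. KRT80 is a type II keratin of cell margins, and KRT23 is a type I keratin described in gastrointestinal tumours.

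On GRCh38 with GENCODE 29, the type II genes and KRT18 lie on chromosome 12 and the other type I genes on chromosome 17. KRT80 (ENSG00000167767) spans 52168996 to 52192000 on the minus strand and KRT7 (ENSG00000135480) 52232520 to 52252186 on the plus strand of chromosome 12. KRT8 (ENSG00000170421, minus strand, 52897187 to 52949954) and KRT18 (ENSG00000111057, plus strand, 52948871 to 52952901) overlap by 1084 bases on opposite strands. On chromosome 17, all on the minus strand, are KRT20 (ENSG00000171431, 40875941 to 40885227), KRT23 (ENSG00000108244, 40922696 to 40937634) and KRT19 (ENSG00000171345, 41523617 to 41528308). KRT8, KRT18 and KRT19 have 50, 68 and 5 pseudogenes in this annotation, of which 1 each is listed in the tables, at no more than 0.151 TPM. How reads shared with such copies, or with the overlapping gene, were assigned is not stated in the labels, so the levels of these 3 genes are uncertain to that extent.

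KRT20 showed the largest change of the 7 in both lines, and the bases before its start are printed because 2 families of factors known to act on it, the caudal homeobox (CDX) and Kruppel-like (KLF) factors, were measured in the same libraries. The sequence is the RefSeq reference (GRCh38.p14), chr17:40885243-40885492, minus strand, 250 bases read 5′ to 3′ up to the start that RefSeq gives for KRT20. That start lies upstream of the GENCODE 29 start given above, and the distances of the matches are counted from the RefSeq start. Capitals mark matches on either strand to TTTAT, a core of CDX sites, and to CACCC, a core of KLF sites. Other forms of these sites were not searched for and are not marked.

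KRT20: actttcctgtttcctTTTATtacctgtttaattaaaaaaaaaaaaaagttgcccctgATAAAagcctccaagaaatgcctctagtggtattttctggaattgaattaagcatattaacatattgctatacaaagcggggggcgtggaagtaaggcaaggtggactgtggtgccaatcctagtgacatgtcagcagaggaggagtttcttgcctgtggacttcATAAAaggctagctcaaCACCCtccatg

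TTTAT matched 3 times, beginning 235, 193 and 28 bases before the start, and CACCC once, 11 bases before it. Of 35116 RefSeq promoter windows of 250 bases, 32.7% hold TTTAT and 54.7% hold CACCC. The exact words TATAAA (10.7% of windows) and TGANTCA (6.57%) were not in this window, and looser forms of them were not searched for. The TTTAT matches at 193 and 28 bases read ATAAA as printed, which is also part of the word TATAAA. Their letters alone therefore do not assign them to CDX factors, and the absence of the exact word does not show a promoter without a TATA element. TATAAA on the opposite strand contains TTTAT, so these words are not independent. Of the 7 members, 2 had an entry in the promoter table.

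The values are TPM (transcripts per 1000000), a level per length of transcript, so levels of different keratins can be compared within a library. The tables of the lines were scaled over different genes, and levels are set side by side between lines without a test. Rescaling over the shared genes raised the LS411N values and left those of LS411N-BR unchanged. Without doxycycline KRT8 was then at 811 ± 85.7 TPM (SD, n = 3) in LS411N and 820 ± 38.8 TPM in LS411N-BR. KRT19 was at 170 ± 37.5 and 164 ± 4.71 TPM without doxycycline, and at 445 ± 26.7 and 419 ± 11.7 TPM with it. KRT20 stayed lower in LS411N, and KRT18, KRT7 and KRT80 stayed higher there. Changes were tested per line on log2(TPM + 1) with limma, with p-values adjusted over all genes tested (Benjamini-Hochberg) and 0.05 as the limit for a call. MUC1 checked the hairpin: in LS411N it was at 4.64, 6.10 and 4.54 TPM without doxycycline and 0.986, 0.814 and 0.967 TPM with it. In LS411N-BR it was at 3.69, 3.94 and 4.27 against 0.699, 0.388 and 0.440 TPM, so the groups were apart in either line. Protein-coding genes took 40.6 to 51.2% of the TPM of a library. Replicate 3 of LS411N without doxycycline stood apart at 51.2%, where replicates 1 and 2 had 40.6 and 40.7%, and it also held the highest KRT8, KRT18, KRT19, KRT20, KRT7 and KRT23 of the 3. This library had 15116 genes above 0 TPM, the fewest of the 12 libraries, against 17669 and 17345 in replicates 1 and 2. Whether its depth or quality differed was not tested. Of 8 colonic epithelial markers 1 (CDX1) was below 1 TPM in every group, and EPCAM was the highest. Of 17 fibroblast, endothelial and immune markers only LUM (in LS411N-BR, at most 3.21 TPM) and CD68 (7.14 to 72.8 TPM) had a group mean above 1 TPM. CD68, a lysosomal protein that is not limited to macrophages, rose with doxycycline in both lines, and LUM in LS411N-BR. The 8 immune markers summed to 7.21 to 8.46 and 17.3 to 20.3 TPM without and with doxycycline in LS411N, and to 33.7 to 36.2 and 68.4 to 72.9 TPM in LS411N-BR. The 9 fibroblast and endothelial markers summed to 0.352 to 0.489, 0.633 to 0.784, 1.54 to 1.86 and 2.86 to 3.82 TPM in the same order. The leukocyte marker PTPRC stayed at or below 0.00343 TPM, MS4A1 was at 0 in every group, and CDH5 was at 0 in all groups but LS411N-BR without doxycycline. The part of any other cell type in the keratin values was not tested.

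With doxycycline, 5 of the 6 keratins tested in LS411N and 6 of 6 in LS411N-BR were called higher by limma. None was lower, also at an unadjusted p under 0.05. Among all genes tested, 9.75% were called higher in LS411N and 56.1% in LS411N-BR, and 3.43% and 11.1% lower. The count in LS411N-BR is therefore read against a background in which most genes were called higher. The LS411N background rested on replicate 3 without doxycycline: without it 5930 of 11186 genes were called higher and 707 lower, and 6 of 6 keratins higher. The median log2 fold change of the 6 keratins was 0.77 in LS411N and 0.68 in LS411N-BR, against 0.08 and 0.18 for all genes tested. After median-of-ratios rescaling, which puts the typical gene at no change, 6 of 6 were higher in both lines, with 18.8% and 32.3% of all genes higher and 16.0% and 32.2% lower. The keratin medians were then 0.70 and 0.51. The seventh, KRT23, lay below the filter of 1 TPM in 3 libraries and was not tested.

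**Figure D1:**
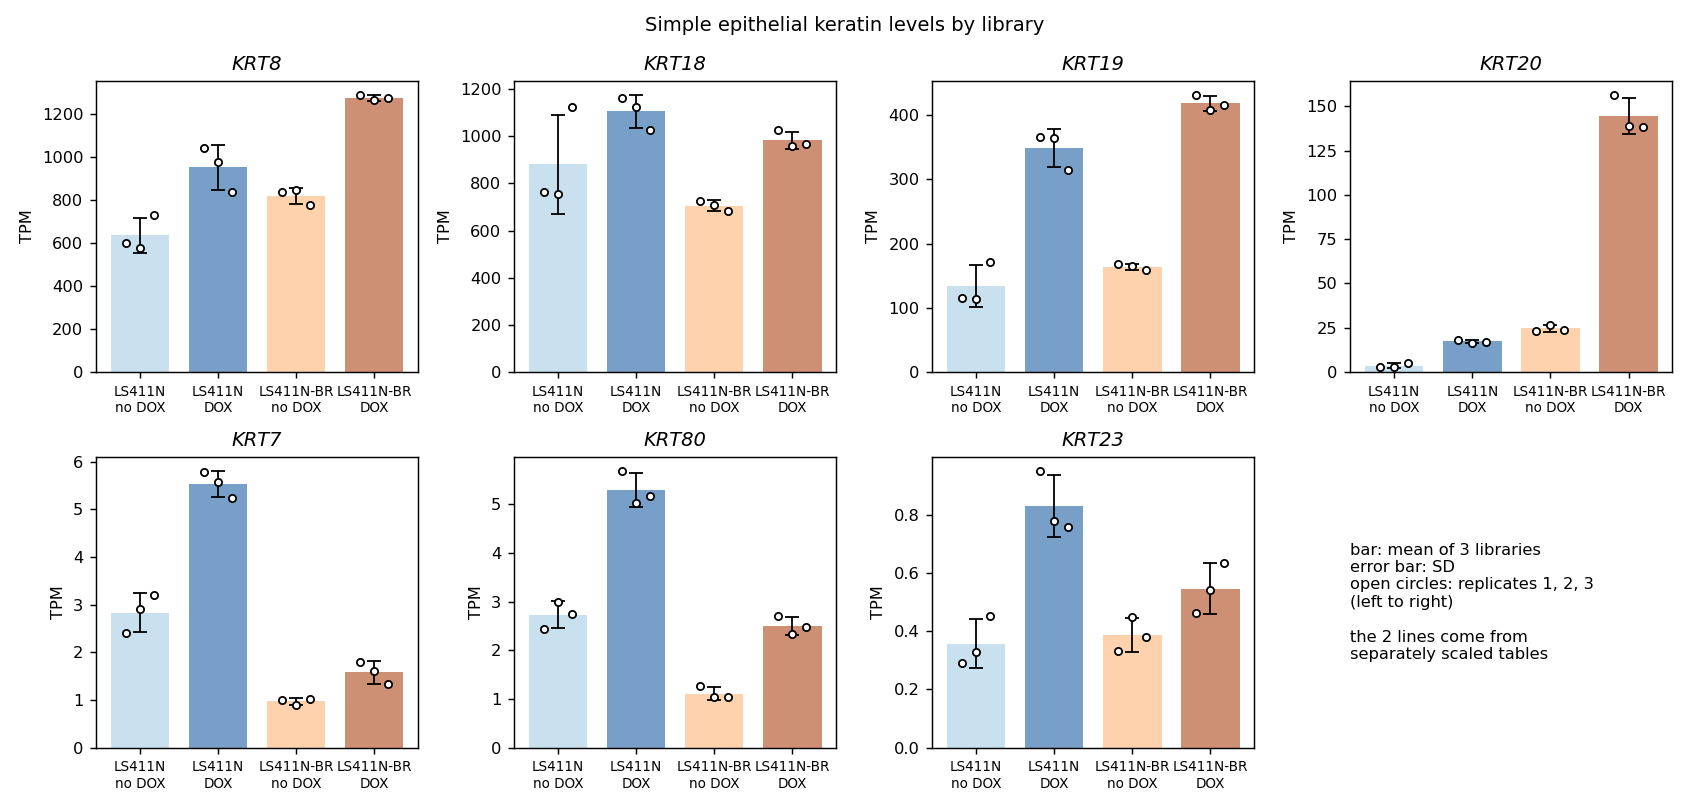
TPM of each keratin (vertical axes, from 0) in the 4 groups, with bars for the mean of 3 libraries, error bars for the SD and open circles for replicates 1 to 3 from left to right. KRT20 in LS411N-BR with doxycycline, at 138 to 156 TPM, stands above every other group, and the KRT18 circles of LS411N with and without doxycycline overlap.

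KRT8, the type II chain that pairs with KRT18 and KRT19, was at 598, 579 and 729 TPM in the LS411N libraries without doxycycline and at 1043, 977 and 839 TPM in those with it. Every library with doxycycline lay above every library without it. The change was 0.59 ± 0.15 (SE) on the log2 scale (limma adjusted p = 0.0043), a ratio of means of 1.5, and 0.51 above the median of all genes. In LS411N-BR, KRT8 went from 839, 845 and 775 TPM to 1289, 1264 and 1275 TPM. These groups did not overlap, and the libraries with doxycycline differed little from each other (SD 12.9 TPM). The change was 0.64 ± 0.06 (SE), or 0.43 after median-of-ratios rescaling (limma adjusted p = 2.6e-05). In LS411N the KRT8 call was lost without replicate 1 (adjusted p = 0.063) or replicate 2 (0.062) of the doxycycline group, where the values were 0.52 and 0.56.

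KRT18, the type I partner of KRT8, was at 765, 755 and 1125 TPM without doxycycline and 1163, 1126 and 1027 TPM with it in LS411N. The groups overlapped because replicate 3 without doxycycline exceeded replicate 3 with it. The difference of 0.35 ± 0.15 (SE) was not called (limma adjusted p = 0.14). Without that library the difference was 0.54 (adjusted p = 0.00013), and with all libraries after median-of-ratios rescaling it was 0.27 (adjusted p = 0.016). In LS411N-BR, KRT18 was at 726, 710 and 682 TPM without doxycycline and 1025, 957 and 967 TPM with it, with no overlap. That rise was 0.48 ± 0.06 (SE), or 0.27 after rescaling (limma adjusted p = 0.0004). KRT18 had the smallest change of the 6 tested keratins in LS411N, whereas in LS411N-BR KRT7 had a smaller value on this scale.

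KRT19, the type I keratin without a tail domain, was the second most changed keratin in both lines. In LS411N it stood at 116, 113 and 171 TPM without doxycycline and at 367, 365 and 315 TPM with it. Replicate 3 was the highest library without doxycycline and the lowest with it, and the groups were still far apart. The change was 1.40 ± 0.15 (SE), with a limma adjusted p of 1.6e-09 and a ratio of means of 2.62. In LS411N-BR it went from 169, 164 and 159 TPM to 432, 409 and 415 TPM, a change of 1.34 ± 0.06 (SE) and a ratio of 2.55. After median-of-ratios rescaling the changes were 1.33 and 1.14 (limma adjusted p = 4.9e-06 and 1.6e-08).

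In LS411N, KRT20 was at 2.82, 3.05 and 5.03 TPM in the untreated libraries and at 18.3, 16.5 and 17.1 TPM under doxycycline. In LS411N-BR it was at 23.3, 26.7 and 24.0 TPM without doxycycline and 156, 139 and 138 TPM with it. The resistant line without doxycycline thus listed more KRT20 than the parental line with it, also when both were rescaled over their shared genes (24.7 ± 1.82 against 22.1 ± 1.01 TPM, SD, n = 3), a comparison across tables that was not tested. The ratio of means was 4.76 in LS411N and 5.86 in LS411N-BR. On the log2(TPM + 1) scale the changes were 2.01 ± 0.15 (SE, limma adjusted p = 1e-14) and 2.50 ± 0.06 (SE), the latter 2.30 after rescaling (limma adjusted p = 2.3e-10).

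**Figure D2:**
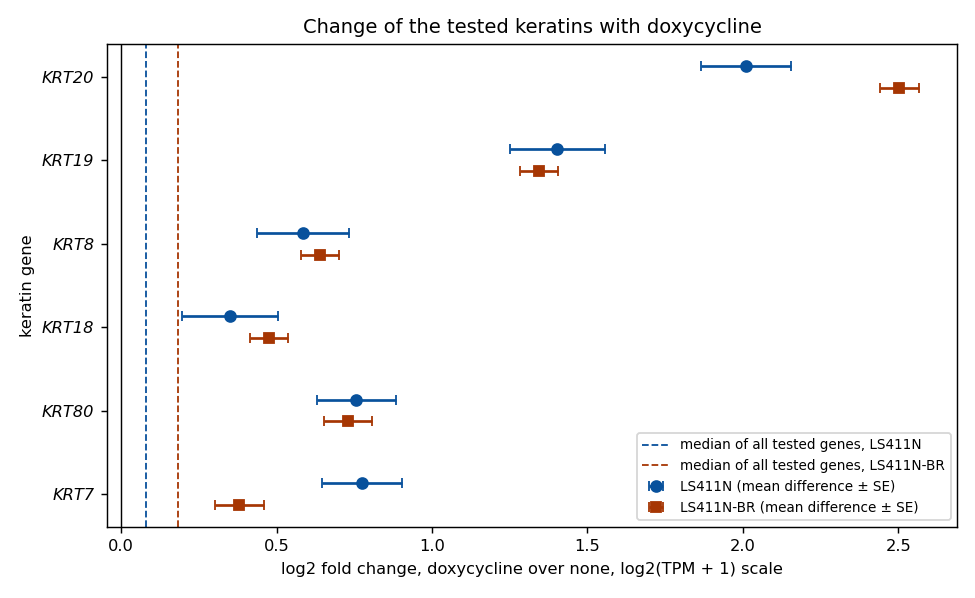
Log2 fold change with doxycycline (horizontal axis, log2(TPM + 1) scale, ± SE) of the 6 tested keratins in LS411N (circles) and LS411N-BR (squares), with the median of all tested genes of each line as a dashed line. KRT20 and KRT19 lie farthest to the right, and KRT7 in LS411N-BR, at 0.38, lies nearest to the dashed line of its own line.

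KRT7 and KRT80, the other type II chains, were far scarcer than KRT8. KRT7 was at 2.40, 2.90 and 3.20 TPM without doxycycline and 5.79, 5.58 and 5.25 TPM with it in LS411N, with no overlap. In LS411N-BR it was at 1.01, 0.896 and 1.03 TPM without and 1.79, 1.62 and 1.33 TPM with doxycycline. The changes were 0.78 ± 0.13 (SE, limma adjusted p = 1.5e-05) and 0.38 ± 0.08 (SE, adjusted p = 3.9e-06), and the ratios of means 1.95 and 1.62. At such levels the added 1 TPM shrinks the change: with 0.1 TPM added instead, KRT7 changed by 0.95 and 0.63.

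KRT80 was at 2.44, 3.00 and 2.75 TPM without doxycycline in LS411N and at 5.69, 5.02 and 5.17 TPM with it. In LS411N-BR it went from 1.26, 1.03 and 1.04 TPM to 2.70, 2.33 and 2.48 TPM. All libraries with doxycycline lay above those without in both lines. The changes were 0.76 ± 0.13 (SE) and 0.73 ± 0.08 (SE), with limma adjusted p-values of 1.9e-05 and 3.9e-20, and with 0.1 TPM added they were 0.93 and 1.10. KRT80 and KRT7 had nearly the same level in LS411N, and both were lower in the LS411N-BR table.

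KRT23 stayed below 1 TPM in every library. It was at 0.290, 0.328 and 0.452 TPM without doxycycline and 0.951, 0.779 and 0.759 TPM with it in LS411N, and at 0.333, 0.450 and 0.379 against 0.462, 0.542 and 0.634 TPM in LS411N-BR. The groups did not overlap in either line, although in LS411N-BR the nearest libraries (0.450 and 0.462 TPM) almost met. An exact two-sided permutation test over the libraries gave p = 0.1 in each line, the smallest p that 3 against 3 can give. Without the TPM filter, limma gave 0.43 in LS411N (adjusted p = 0.025) and 0.16 in LS411N-BR (adjusted p = 0.057).

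Counting separation instead of p-values, all libraries with doxycycline exceeded all those without for 6 of the 7 keratins in LS411N and for 7 of 7 in LS411N-BR. The same held for 19.3% and 56.0% of the genes tested.

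The order of the levels differed between the lines in its upper ranks. In LS411N without doxycycline it was KRT18 (882 ± 211 TPM, SD, n = 3), KRT8 (636 ± 81.7), KRT19 (133 ± 32.6), then KRT20 (3.64 ± 1.21), KRT7 (2.83 ± 0.406) and KRT80 (2.73 ± 0.279), which did not differ beyond their spread, and KRT23 (0.357 ± 0.0844). With doxycycline KRT20 moved clear of KRT7 and KRT80 (17.3 ± 0.921 against 5.54 ± 0.275 and 5.29 ± 0.354), and these last 2 overlapped. KRT18 and KRT8 then also overlapped across libraries (1105 ± 70.2 and 953 ± 104), although KRT18 was the higher in each library. In LS411N-BR, KRT8 exceeded KRT18 in all 6 libraries. Without doxycycline the order was KRT8 (820 ± 38.8), KRT18 (706 ± 22.0), KRT19 (164 ± 4.71), KRT20 (24.7 ± 1.82), KRT80 (1.11 ± 0.128), KRT7 (0.977 ± 0.0706) and KRT23 (0.387 ± 0.0593). KRT80 and KRT7 differed there by about their spread. With doxycycline the order was the same, at 1276, 983, 419, 145, 2.50, 1.58 and 0.546 TPM.

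Ratios within a library do not depend on how that library was scaled. Without and with doxycycline, the ratio of KRT18 to KRT8 was 1.37 ± 0.146 and 1.16 ± 0.0555 (SD, n = 3) in LS411N. It was 0.862 ± 0.0203 and 0.770 ± 0.0213 in LS411N-BR. The groups with and without doxycycline did not overlap in either line (1.28 to 1.54 against 1.12 to 1.22, and 0.840 to 0.880 against 0.757 to 0.795). The ratio of KRT19 to KRT8 went the other way, from 0.208 ± 0.0230 to 0.367 ± 0.0132 and from 0.201 ± 0.00564 to 0.328 ± 0.00592. For KRT20 to KRT19 it went from 0.0269 ± 0.00251 to 0.0498 ± 0.00461 in LS411N and from 0.150 ± 0.0123 to 0.345 ± 0.0156 in LS411N-BR. So the listed KRT20 was higher relative to both KRT8 and KRT19 with doxycycline, in every library of each line. KRT80 to KRT8 overlapped between the LS411N groups (0.00377 to 0.00517 against 0.00513 to 0.00616) and did not in LS411N-BR. KRT7 to KRT8 overlapped in LS411N-BR (0.00106 to 0.00132 against 0.00104 to 0.00139) and did not in LS411N.

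Summed over the 7 genes, keratin RNA made up 0.374% ± 0.0211 (SD, n = 3) of the TPM of matched protein-coding genes in untreated LS411N. Under doxycycline it was 0.546% ± 0.0218. In LS411N-BR it was 0.379% ± 0.0148 and 0.579% ± 0.00947. The groups with and without doxycycline did not overlap in either line. More cells with a given keratin and more keratin RNA per cell cannot be told apart in such bulk samples. Of the summed TPM, given without and then with doxycycline, KRT18 held 52.8% ± 2.09 and 45.4% ± 0.948 in LS411N, and 41.1% ± 0.472 and 34.8% ± 0.420 in LS411N-BR. KRT19 held 7.99% ± 0.352 and 14.3% ± 0.272 in LS411N, and 9.57% ± 0.153 and 14.8% ± 0.0573 in LS411N-BR. KRT20 held 0.216% ± 0.0290 and 0.713% ± 0.0582 in LS411N, and 1.44% ± 0.104 and 5.11% ± 0.239 in LS411N-BR. The share of KRT8 overlapped between the LS411N groups (35.8 to 40.2% against 38.0 to 40.1%) and was lower with doxycycline in LS411N-BR (44.4 to 45.6% against 47.2 to 48.3%).

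**Figure D3:**
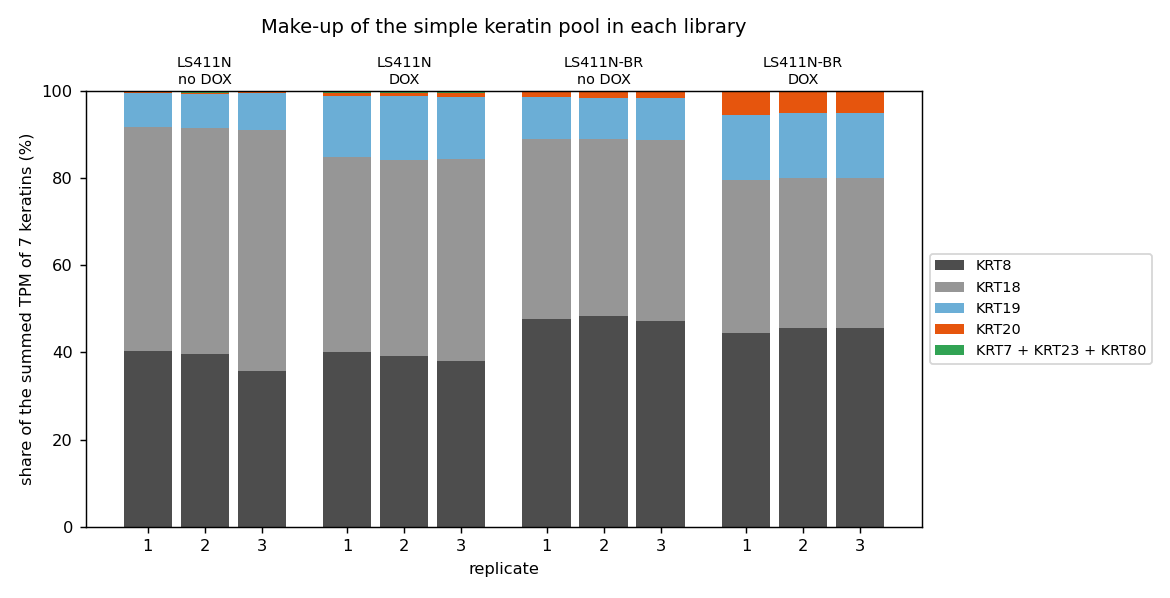
Share of each keratin in the summed TPM of the 7 genes (vertical axis, %) for each of the 12 libraries, numbered by replicate within its group. The KRT19 and KRT20 bands widen with doxycycline in both lines, KRT20 to 4.93 to 5.38% in LS411N-BR, while the KRT18 band narrows. KRT7, KRT23 and KRT80 are drawn as 1 band.

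Summed TPM of the type I genes exceeded that of the type II genes in every library. These are RNA levels, mostly of KRT18 and KRT8, and protein chains were not measured. The ratio of summed type I to type II TPM was 1.58 ± 0.169 (SD, n = 3) without and 1.53 ± 0.0663 with doxycycline in LS411N, where the groups overlapped. In LS411N-BR it was 1.09 ± 0.0251 without and 1.21 ± 0.0337 with doxycycline, with no overlap.

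Whether the doxycycline effect differed between the lines was asked in limma, with an interaction term fitted to the 12 libraries together, signed as LS411N-BR minus LS411N. Of the 6 tested keratins 0 were called, against 2.12% of all genes, and 2 (KRT20 and KRT7) had an unadjusted 95% interval that did not include 0. For KRT20 the difference was 0.49 ± 0.18 (SE, interval 0.12 to 0.87, limma adjusted p = 0.22). It was 0.28 with 0.1 TPM added (adjusted p = 0.63) and 0.34 after median-of-ratios rescaling (adjusted p = 0.066). Leaving out replicate 1 of LS411N without doxycycline gave 0.62 and a call (adjusted p = 0.047). For KRT7 the difference was -0.39 ± 0.14 (SE, interval -0.68 to -0.11, adjusted p = 0.18). It was called after median-of-ratios rescaling (-0.46, adjusted p = 0.01), over protein-coding genes (-0.44, adjusted p = 0.031) and on leaving out replicate 3 of the LS411N group without doxycycline (-0.46, adjusted p = 0.0096). Under the other 18 of 21 alternatives it was not called. These include 0.1 TPM added instead of 1 TPM, with which KRT7 changed by 0.95 in LS411N and 0.63 in LS411N-BR. Across all 21 the difference lay between -0.46 and -0.31, with limma adjusted p up to 0.56. The intervals for KRT8 (-0.25 to 0.36), KRT18 (-0.23 to 0.48), KRT19 (-0.42 to 0.30) and KRT80 (-0.29 to 0.24) include 0. Over all genes tested the median difference was 0.11, and -0.0092 after median-of-ratios rescaling, and the intervals carry this general shift. They rest on 3 cultures per group on the log2(TPM + 1) scale and set no bound for the lines beyond these cultures.

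**Figure D4:**
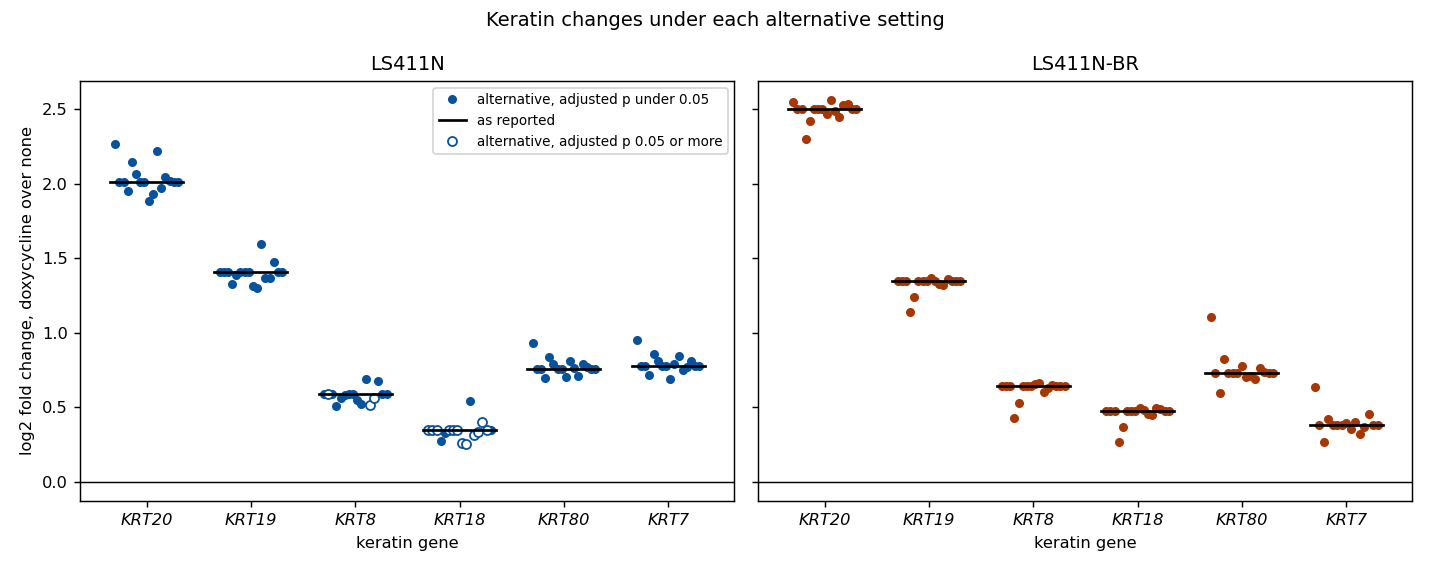
Log2 fold change with doxycycline (vertical axis) of the 6 tested keratins under each alternative setting, as filled circles where the adjusted p was under 0.05 and open circles otherwise, with a line at the value reported in the text. All circles lie above 0, and open circles occur for KRT18 and KRT8 in LS411N.

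Other keratins were nearly silent. Of the 48 keratin genes outside the members that both tables list, 47 stayed under 1 TPM in every library and 8 were at 0 throughout. The basal and stratified keratins KRT15 and KRT17 and the mucosal keratin KRT4 were at most 0.926, 0.367 and 0.537 TPM in any library. The exception was KRT10, a type I keratin of the upper epidermis, which in LS411N was at 9.54, 8.23 and 10.3 TPM untreated and 11.3, 13.3 and 13.2 TPM under doxycycline. In LS411N-BR it was at 5.69, 6.05 and 6.2 against 8.34, 8.37 and 7.72 TPM. Its rise was 0.39 ± 0.14 (SE, limma adjusted p = 0.0498) in LS411N and 0.39 ± 0.07 (SE, adjusted p = 8.5e-08) in LS411N-BR. With 1 library left out the LS411N call of KRT10 held only without replicate 3 of the untreated group (adjusted p otherwise up to 0.34), and it was lost without the TPM filter (0.13). The 7 members made up 99.3 to 99.7% of the summed keratin TPM of a library.

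Of 15 other intermediate filament genes, 4 were tested in LS411N and 3 in LS411N-BR. Vimentin (VIM), the filament of mesenchymal cells, was at most 0.244 TPM in any library. LMNA, which encodes the A-type lamins of the nuclear envelope, was called higher in both lines, from 45.1 ± 6.60 to 62.4 ± 3.63 TPM (SD, n = 3) in LS411N and from 35.3 ± 1.62 to 51.3 ± 0.341 TPM in LS411N-BR. The LS411N call of LMNA (limma adjusted p = 0.022) held on leaving out replicate 3 without doxycycline and was lost on leaving out each other library (adjusted p up to 0.21). The B-type lamin LMNB2 fell in LS411N-BR, from 44.6 ± 2.76 to 40.1 ± 2.96 TPM (limma adjusted p = 0.026), and was at 50.7 ± 6.85 and 43.4 ± 1.48 TPM in LS411N, where it was not called (adjusted p = 0.39) unless rescaled by median of ratios (-0.29, limma adjusted p = 0.0014). The LMNB2 groups did not overlap in LS411N and overlapped in LS411N-BR. After that rescaling 1 gene of the list rose (LMNA) and 2 fell (LMNB1 and LMNB2) in each line. The LMNB2 call was lost on leaving out replicate 2 without doxycycline or replicate 2 or 3 with it (adjusted p up to 0.16). The list's median was -0.17 in LS411N and -0.02 in LS411N-BR, against 0.08 and 0.18 for all genes.

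Proteins that anchor or link keratin filaments were a list of 19, of which 17 were tested. In LS411N 4 rose (DSC2, JUP, PLEC and PPL), 1 fell (TRIM29) and 12 were not called, and in LS411N-BR 10 rose and 3 fell. Over all genes 9.75% rose and 3.43% fell in LS411N, and 56.1% and 11.1% in LS411N-BR, so the count of linkers that rose in LS411N-BR was near the background. After median-of-ratios rescaling 5 rose and 6 fell in LS411N (18.8% and 16.0% of all genes), and 9 and 5 in LS411N-BR (32.3% and 32.2%). The median was 0.12 in LS411N and 0.32 in LS411N-BR, against 0.08 and 0.18 for all genes. Periplakin (PPL), which links keratins to desmosomes, rose from 6.02 ± 1.83 to 10.7 ± 0.809 TPM in LS411N and from 3.25 ± 0.288 to 6.83 ± 0.229 TPM in LS411N-BR. Plectin (PLEC), a cross-linker of intermediate filaments, rose from 9.78 ± 2.80 to 16.2 ± 0.491 TPM and from 8.21 ± 0.365 to 16.1 ± 1.35 TPM. The desmosomal cadherin DSC2 rose from 15.5 ± 3.00 to 26.0 ± 1.17 TPM in LS411N and from 40.6 ± 2.07 to 70.3 ± 4.30 TPM in LS411N-BR. The LS411N call of plakoglobin (JUP), a desmosomal plaque protein, was lost without replicate 1 or 2 with doxycycline (adjusted p = 0.082 and 0.089). JUP rose from 60.9 ± 1.46 to 113 ± 8.21 TPM in LS411N-BR. Dystonin (DST), a plakin, rose from 2.94 ± 0.219 to 6.75 ± 0.442 TPM there and was at 3.90 ± 1.19 and 4.72 ± 0.413 TPM in LS411N. The difference between the lines was called for DST (0.73 ± 0.17 SE, limma adjusted p = 0.024), a call lost on leaving out replicate 2 or 3 of LS411N with doxycycline, 1 or 3 of LS411N-BR without it, or 1 or 3 of LS411N-BR with it (adjusted p up to 0.12). It was also called for TRIM29, a keratin-binding protein (0.60, adjusted p = 0.0077).

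Factors known to act on simple keratin genes were a list of 16, of which 14 were tested. KLF4, a factor of differentiated surface cells, rose from 19.2, 21.5 and 25.6 TPM to 53.9, 54.6 and 48.3 TPM in LS411N (1.21 ± 0.14 SE, limma adjusted p = 9.6e-09). In LS411N-BR it rose from 27.2, 30.2 and 26.9 TPM to 88.3, 80.5 and 83.1 TPM (1.55 ± 0.06 SE). No library with doxycycline overlapped those without it. CDX2, the homeobox factor of intestinal identity, rose from 11.9 ± 2.25 to 17.1 ± 1.69 TPM (SD, n = 3) in LS411N and from 23.1 ± 2.23 to 30.4 ± 0.959 TPM in LS411N-BR. The LS411N call of CDX2 (limma adjusted p = 0.014) was lost on leaving out any library but replicate 3 without doxycycline (adjusted p up to 0.16). ETS2, an ETS-family factor, fell from 117 ± 16.8 to 71.9 ± 2.91 TPM in LS411N and from 123 ± 7.89 to 81.8 ± 3.71 TPM in LS411N-BR. FOXA2 fell in LS411N-BR, from 15.2 ± 0.374 to 8.60 ± 0.245 TPM. In all 3 rose and 1 fell in LS411N, and 9 rose and 2 fell in LS411N-BR, with 4 and 2, and 6 and 5, after median-of-ratios rescaling. The counts in LS411N-BR lay near the background of 56.1% of all genes higher and 11.1% lower, or 32.3% and 32.2% after rescaling. In LS411N that background was 9.75% and 3.43%, or 18.8% and 16.0%. The list's median was 0.13 and 0.27, against 0.08 and 0.18 for all genes.

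Genes with the pattern most like that of each keratin were ranked by the Pearson correlation of log2(TPM + 1), centred within each line, over the 12 libraries, among about 7821 genes with a mean of at least 5 TPM in a group of each line. The libraries share their scaling and the doxycycline contrast, so the values are a description. For KRT20 they were LIMA1, an actin-binding protein (r = 0.998), KLF4 (0.997) and the factor BHLHE41 (0.997). For KRT19 they were MYOF (0.999), GCNT3 (0.997) and CEACAM5 (0.996), and for KRT8 CTTNBP2NL (0.992), MYO1E (0.992) and LMNA (0.990). KRT18 followed NOL7 (0.991), MRPL58 (0.991) and PSMD2 (0.989). KRT80 was closest to C19ORF33 (0.994), CAVIN1 (0.987) and MAPK3 (0.986), and KRT7 to SULT2B1 (0.979), S100A11 (0.972) and LINC01133 (0.969). Among the keratins themselves, r was 0.985 between KRT19 and KRT20 and between KRT19 and KRT8, and 0.938 between KRT8 and KRT18. It was lower for KRT18 with KRT20 (0.890), KRT80 (0.823) and KRT7 (0.804). Many other genes ranked closer than a keratin did. KRT19 ranked 15 for KRT8 and KRT20 ranked 90 for KRT19, but KRT18 ranked 929 for KRT8 and KRT8 ranked 1321 for KRT18.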

How the data were processed

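RNA-seq libraries (TruSeq Stranded mRNA) of LS411N and LS411N-BR were deposited as TPM per gene, in 1 table per line, per the labels. Per the submitters' processing notes the tools were STAR and DESeq2 and the build GRCh38, with no roles. The program that made the deposited TPM values, its annotation and use of strand, and read totals: not given in the sources used here. Depth is therefore unknown, and no counting interval is given. A gene entered a test when 3 or more of the compared libraries had 1 TPM or more, and tests were run on log2(TPM + 1) with limma 3.58.1 (R 4.3.3, intensity trend, two-sided, Benjamini-Hochberg). For LS411N-BR limma estimated 1 common spread for all genes of a given level (an infinite prior), which makes its p-values very small. Ratios of means use TPM without a pseudocount. Protein-coding genes, matched by exact symbol and letter case, and positions came from GENCODE 29. Coding genes under other spellings are missing from the protein-coding shares and rescaling.

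Named were all 7 keratins, MUC1, other keratins with a group mean of at least 1 TPM, up to 3 called genes per list and line with the smallest adjusted p, and the 3 genes most like each keratin; KRT4, KRT15, KRT17, VIM, LMNB1, CD68 and LUM and the differences for DST and TRIM29 were added after their values were seen. The keratins and lists were chosen with earlier results of these data known. The fits were tested on simulated data first, with independent noise for each gene and no shift shared by a library. Changes of 1.5-fold on the log2(TPM + 1) scale were called for 42% of changed genes in LS411N, 95% in LS411N-BR and 60% for the difference. For changes of 2-fold these were 84, 100 and 97%. A keratin not called in LS411N may therefore have changed by 1.5-fold or less. Alternatives were other pseudocounts, filters, rescalings, moderation, a replicate block, a pooled spread and leaving out each library.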

Additional observations from a re-analysis of the deposited data

How the results depend on the processing

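In LS411N 4 to 7 keratins were called higher and 0 lower by limma under every alternative run, and in LS411N-BR 4 to 6 higher and 0 lower; 4 in LS411N-BR is the count with a filter of 5 TPM, which leaves 4 keratins to test. No log2 fold change of a keratin with doxycycline changed sign within a line. Among the values of single keratins under an alternative, differences between lines included, 305 kept their direction and their side of the threshold, 8 became called and 3 lost the call. KRT8 in LS411N lost its call when no TPM filter was set (adjusted p = 0.084), and KRT18 there was called over protein-coding genes (adjusted p = 0.0049) and with a spread from all 12 libraries (0.035). For the difference between lines, keratins called lower numbered 1 after median-of-ratios rescaling (KRT7) and 2 after protein-coding rescaling (KRT7 and KRT23, the latter at -0.47 with adjusted p = 0.036), against 0 as reported. On leaving out each library 0 to 1 were called higher and 0 to 1 lower. The cause of these changes was not tested.

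Over all genes, calls in LS411N numbered 1100 higher and 387 lower, and 5930 and 707 without replicate 3 without doxycycline, 454 and 170 without replicate 3 with doxycycline, 583 and 223 without the TPM filter and 2124 and 1802 after median-of-ratios rescaling. In LS411N-BR they were 6351 and 1252, and 3652 and 3641 after that rescaling. With it, calls in the higher direction went from 74 to 54.1% of calls in LS411N and from 83.5 to 50.1% in LS411N-BR.

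Replicate numbers were shared by the groups. Deviations of same-numbered libraries correlated at 0.0294, 0.00622 and 0.173 in LS411N and 0.023, 0.00307 and 0.00837 in LS411N-BR. Differently numbered libraries spanned -0.212 to 0.214 in LS411N and -0.0866 to 0.0695 in LS411N-BR. With 3 libraries per group, these values cannot show whether same-numbered libraries were handled together. With a replicate block 5 keratins were called higher in LS411N, 6 in LS411N-BR and 0 for the difference, the same counts as without it, while all calls in LS411N went to 632 higher and 268 lower. KRT10, LMNA, JUP, CDX2 and ELF3 in LS411N were not called with the block (adjusted p = 0.22, 0.14, 0.053, 0.085 and 0.19).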
